A study of Mus musculus with 10 samples.

Results

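Interleukins are secreted signals by which blood cells instruct each other, and each acts through a receptor built from chains that are often shared between several interleukins. The genes described here are those on the array whose symbol begins with Il and a digit, leaving out Il3ra and Il5ra. The array held 79 such symbols, namely 36 ligands, 35 receptor chains, 6 decoys or antagonists and 2 others. Each gene was represented by its brightest probe and was kept if that probe was well above background on at least 2 of the 10 arrays. This left 50 genes, with 19 ligands, 24 receptor chains, 5 decoys or antagonists and 2 others, among 14217 genes of the whole array that met the same filter. Of the 29 genes left out, 20 were well above background on 0 arrays, 8 on 1 array, and Il2 lacked a value because its spot was marked as an outlier.

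The cells were EML-C1, a single established mouse line of blood progenitors that is kept in a medium with horse serum and BHK/MKL conditioned medium and has the capacity for red cell and myeloid differentiation. A single array held the untreated population of day 0. The EPO group received 10 ng/ml erythropoietin, the hormone that drives red cell formation. The IL-3/GM-CSF group received 10 ng/ml IL-3 with 10 µM all-trans retinoic acid (ATRA) from day 0, with GM-CSF at 10 ng/ml joining only once day 3 had passed, so its day 3 cells had met no GM-CSF. The combined group received both sets of factors. Each treatment gave 3 arrays, namely cells sorted at day 3 for low or high surface Sca1, and a day 6 sample whose labels give no Sca1 sort. The IL-3 that was added is a protein in the medium, and Il3 below is the cells' own transcript.

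Each condition had 1 array, so no value below has replicate error, and the p-values set a difference against its unevenness across treatments or populations. The study design describes duplicate experiments, and the other samples were not analysed here. Levels are the log2 processed signal minus the 75th percentile of the same array, so 0 is the level of a fairly bright probe and a step of 1 is 2-fold. That percentile lay at a signal of 309 on the EPO Sca1-low array and between 478 and 736 on the others. The dimmest spots called well above background lay between -5.36 and -3.47, depending on the array, and this is called the background limit of an array. It was highest on the EPO day 6 array. A fold between single arrays whose lower side was not well above background was measured from that limit and is given as "at least". A fitted mean difference, given with its SE, uses every level as read, dim ones included, and where no array of its lower side was well above background its bound is given beside it. Levels of different genes come from different probes and are not set against each other.

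Most interleukin receptors signal through JAK kinases bound to their chains, which activate STAT transcription factors. The IL-1 and IL-18 receptors use another route, through MyD88 and IRAK kinases. In haematopoietic progenitors this family includes growth signals such as IL-6 acting through gp130 (Il6st), and the mast cell, basophil and T cell cytokines Il4, Il6, Il9, Il10 and Il13. Several members work as brakes: Il1r2 binds IL-1 without signalling, Il1rn blocks the IL-1 receptor, Il18bp and Il22ra2 are soluble binders of IL-18 and IL-22, and Il13ra2 is a decoy for IL-13.

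The 250 bases before the transcription start are printed for 4 genes that carry the patterns described below: Il1r2 and Il1f9, high in day 6 cells given IL-3/GM-CSF, and Il6 and Il18rap, low in every Sca1-low fraction. They are RefSeq sequences on build GRCm38.p6, all on the plus strand, at chr1:40085843-40086092 for Il1r2, chr2:24186226-24186475 for Il1f9, chr5:30012864-30013113 for Il6 and chr1:40515112-40515361 for Il18rap. Capitals mark matches on either strand. The letters TTCNNNGAA were searched for STAT factors and TTGCNNAA for C/EBP factors. The letters AGATAA were searched for erythroid and mast cell zinc finger factors of the GATA family. The letters TGAGTCA were searched for AP-1, a dimer of Fos and Jun proteins, and no motif's letters overlap another's in these windows.
Il1r2: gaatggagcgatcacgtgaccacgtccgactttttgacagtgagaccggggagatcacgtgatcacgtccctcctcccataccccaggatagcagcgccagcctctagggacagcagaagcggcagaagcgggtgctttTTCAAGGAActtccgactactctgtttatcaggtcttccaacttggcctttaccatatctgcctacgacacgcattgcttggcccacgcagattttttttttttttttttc
Il1f9: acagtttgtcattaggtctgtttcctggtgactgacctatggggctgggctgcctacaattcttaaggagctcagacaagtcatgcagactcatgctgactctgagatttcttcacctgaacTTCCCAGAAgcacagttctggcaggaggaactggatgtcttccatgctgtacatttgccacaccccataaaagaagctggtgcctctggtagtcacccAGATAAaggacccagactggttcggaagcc
Il6: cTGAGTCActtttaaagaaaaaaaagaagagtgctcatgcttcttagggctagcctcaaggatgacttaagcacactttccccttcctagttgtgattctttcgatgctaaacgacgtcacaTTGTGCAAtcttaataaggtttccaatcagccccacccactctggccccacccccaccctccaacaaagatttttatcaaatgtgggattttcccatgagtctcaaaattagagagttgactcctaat
Il18rap: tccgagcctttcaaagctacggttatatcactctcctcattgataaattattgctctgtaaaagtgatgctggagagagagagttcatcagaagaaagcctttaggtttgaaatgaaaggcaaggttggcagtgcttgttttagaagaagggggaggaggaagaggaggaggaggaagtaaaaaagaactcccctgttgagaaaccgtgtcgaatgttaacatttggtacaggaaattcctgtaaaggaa
The Il1r2 window held a STAT match that begins 111 bases before the start. The Il1f9 window held a STAT match at 128 bases and a GATA match at 30 bases before the start. The Il6 window held a C/EBP match at 128 bases and an AP-1 match at 249 bases before the start. The Il18rap window held none of the 4. Promoter windows were listed for 39 of the 50 genes, 50 windows in all because some genes have several starts. STAT letters occurred in 7 of these windows (14%, against 7.02% of all 32851 windows), C/EBP letters in 6 (12% against 9.56%), GATA letters in 11 (22% against 9.99%) and AP-1 letters in 7 (14% against 4.46%). These are matches of letters only.

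The interleukin genes varied widely over the conditions. With levels below the background limit raised to that limit, the median gene ranged over 2.78 log2 units between its lowest and highest array, against 1.51 for all genes tested. The filter keeps genes that are high on a few arrays only, so these ranges are a description. The number of the 50 genes well above background ran from 29 (58%) on the EPO Sca1-low array to 47 (94%) on the IL-3/GM-CSF Sca1-high and the combined day 6 arrays. Over all genes tested the share ran from 78.4% on the EPO day 6 array to 94.9% on the IL-3/GM-CSF Sca1-high array, with 83.1% on the EPO Sca1-low array. On all 10 arrays 22 were well above background, among them 14 receptor chains but only 6 ligands. Just inside the filter, with 2 arrays each, were Il13ra2, Il17f, Il1rn and Il9, whose highest levels ran from -3.79 to -1.21. Just outside, with 1 array each, were Il12a, Il17c, Il17rb, Il17rd, Il1rapl1, Il25, Il5 and Il7r, with highest levels from -4.68 to -0.71.

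**Figure D1:**
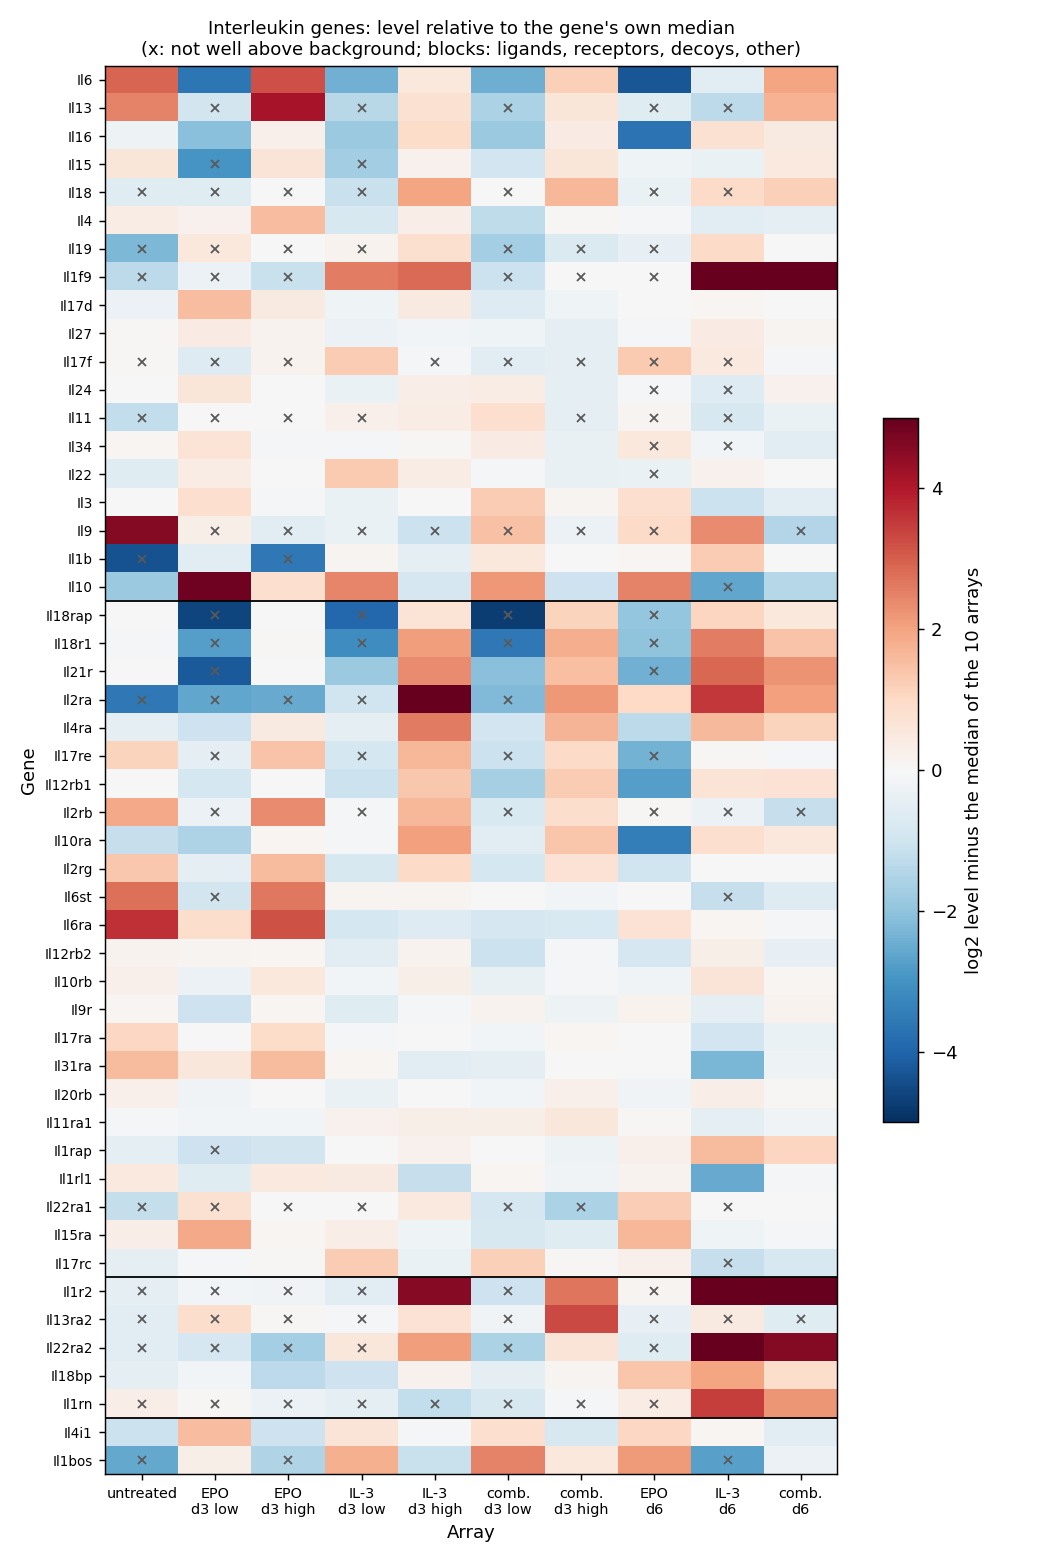
Level of each of the 50 interleukin genes (rows, in blocks of ligands, receptors, decoys and others) on each of the 10 arrays (columns), as the log2 difference from the gene's own median over the arrays. Crosses mark spots not well above background, and among the strongest reds are Il1r2 and Il1f9 in the day 6 cells given IL-3/GM-CSF alone or combined with EPO, Il10 in EPO Sca1-low cells and Il2ra in IL-3/GM-CSF Sca1-high cells.

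The comparison of Sca1-low with Sca1-high cells at day 3 asks how cells with a low surface level of this progenitor protein differed from cells with a high one. Of the 50 genes, 12 fell and 2 rose in Sca1-low cells (limma on the 6 day 3 arrays with treatment as a block, Benjamini-Hochberg adjusted p under 0.05 over all 14217 genes). Over all genes 6.98% fell and 4.09% rose by the same rule. The median difference was -0.38 log2 for the interleukin genes and 0.17 for all genes, and quantile normalization after normexp moved the latter to 0.04. Receptor chains made up 8 of the genes that fell, of 24, and ligands 4 of 19. The 10 genes of the common gamma chain family, which includes the receptors of IL-2, IL-4, IL-15 and IL-21, held 6 of those that fell. Of these 6, the calls of Il2rb, Il4ra, Il15 and Il4 were lost under other processing, as described below. None of the 5 decoys or antagonists passed the test. The test rests on 3 low-high pairs: without the IL-3/GM-CSF pair it called 0 of the 14 genes (adjusted p from 0.0568 to 0.145), and without the combined pair it called 5 of them. Without the EPO pair all 14 were still called. All 14 differed in the same direction in each of the 3 pairs, so leaving out a pair could not change a sign. The additive fit of all 10 arrays also called 0 of the 14 (adjusted p from 0.111 to 0.277).

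Both chains of the receptor for IL-18, a signal for NK, T and mast cells, were not well above background in any Sca1-low fraction. Il18rap lay at -5.94 and -1.30 in EPO Sca1-low and Sca1-high cells, at -5.25 and -0.65 with IL-3/GM-CSF, and at -6.08 and -0.21 with the combined treatment. All 3 low fractions were not well above background and all 3 high fractions were, so the difference of -5.04 ± 0.33 (SE, 3 pairs, limma adjusted p = 0.00536) is read as at least 10.8-fold. Il18rap stood at -1.38 in untreated cells, beside the EPO Sca1-high value. Il18r1, the other chain, lay at -5.73 and -2.90 with EPO, -6.08 and -0.87 with IL-3/GM-CSF, and -6.55 and -1.16 with the combined treatment. It too was not well above background in any low fraction, and fell by at least 5.66-fold (limma difference -4.47 ± 0.57 SE, adjusted p = 0.0165). The genes of both chains are neighbours on chromosome 1, in a run of 6 genes of this family that also holds Il1r2 and Il1rl1.

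In the common gamma chain family Il21r, Il2rg, Il2rb, Il4ra, Il4 and Il15 fell. Il21r, the IL-21 receptor chain, lay at -5.59 (not well above background) and -1.38 in EPO low and high cells, at -3.24 and 0.98 with IL-3/GM-CSF, and at -3.46 and 0.12 with the combined treatment. Its 3 low values all lay below its 3 high values, with a difference of -4.00 ± 0.24 (SE, 3 pairs, limma adjusted p = 0.00434). Il2rg, the gamma chain itself, shared by the receptors of IL-2, IL-4, IL-7, IL-9, IL-15 and IL-21, was at 0.89, 0.55 and 0.47 in the low fractions under EPO, IL-3/GM-CSF and both together, and at 2.93, 2.34 and 2.07 in the high ones. It was well above background on all 10 arrays and fell by 1.81 ± 0.21 log2 (SE, 3 pairs, limma adjusted p = 0.0136). Il2rb, the shared beta chain of the IL-2 and IL-15 receptors, was dim: it was well above background in the 3 high fractions, at -3.36, -4.06 and -4.85, and in no low fraction. Its bound was only at least 1.04-fold, and with levels raised to the background limit its difference was -0.06 (limma adjusted p = 0.885), so its call of 0.0226 rests on values below that limit.

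Il4ra, the IL-4 receptor chain, fell by 2.43 ± 0.37 log2 (SE, 3 pairs, limma adjusted p = 0.0239) on its brightest probe. That probe read -2.18, -1.61 and -2.10 in the low and -0.66, 1.49 and 0.58 in the high fractions under EPO, IL-3/GM-CSF and both together. The other Il4ra probe was also well above background on all 10 arrays, differed on average by 0.38 in the opposite direction, and correlated at -0.21 with the brightest one. The mean of both probes gave -1.03 for Il4ra with a limma adjusted p of 0.190, so the result depends on the probe.

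The remaining receptors that fell belong to the IL-10 and IL-17 families. Il10ra, the ligand-binding chain for IL-10, was at -1.004, 0.41 and -0.03 in the low and 0.64, 2.57 and 1.93 in the high fractions under EPO, IL-3/GM-CSF and both together. Its fall was 1.92 ± 0.22 log2 (SE, 3 pairs, limma adjusted p = 0.0126), and it held within each treatment although the EPO high value lies close to the IL-3/GM-CSF low value. Il17re, a chain of the IL-17C receptor, was at -3.83, -4.25 and -4.45 in the low fractions, none well above background, and at -1.95, -1.73 and -2.43 in the high ones. It fell by at least 4.28-fold (limma difference -2.14 ± 0.23 SE, adjusted p = 0.0118).

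Among the ligands, Il6 had the widest gap. Il6 stood at 4.47 in untreated cells and 4.77 in EPO Sca1-high cells, and at -2.09 in EPO Sca1-low cells, 116-fold below the high fraction of the same treatment. With IL-3/GM-CSF it was at -0.88 and 2.07, and with the combined treatment at -0.90 and 2.75, in low and high cells. The mean fall was 4.48 ± 0.81 log2 (SE, 3 pairs, limma adjusted p = 0.0368), and all 6 values were well above background. With no filter on dim probes its adjusted p was 0.0583. Il16, a chemoattractant for CD4 cells, was at -0.74, -0.51 and -0.52 in the low and 1.61, 2.27 and 1.76 in the high fractions, and fell by 2.47 ± 0.22 log2 (SE, 3 pairs, limma adjusted p = 0.00864). The 3 low values of Il16 lay close together and apart from the high ones.

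Il4, the cytokine of type 2 immunity, had a smaller gap: -0.73, -1.76 and -2.23 in the low and 0.60, -0.64 and -0.92 in the high fractions under EPO, IL-3/GM-CSF and both together. It fell by 1.25 ± 0.20 log2 (SE, 3 pairs, limma adjusted p = 0.0271, or 0.0503 with no filter on dim probes), and the EPO low value lay within the range of the high fractions. Il15, which maintains NK and memory T cells, was at -5.75, -4.53 and -3.77 in the low fractions, of which only the combined one was well above background, and at -2.15, -2.58 and -2.20 in the high ones. Its difference was -2.37 ± 0.45 (SE, 3 pairs, limma adjusted p = 0.0416), and its call was lost with quantile normalization (0.0611) and with no filter on dim probes (0.0663).

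The 2 genes that rose in Sca1-low cells were Il10 and Il1bos. Il10, an anti-inflammatory cytokine, was at 2.15, -0.30 and -0.54 in the low fractions under EPO, IL-3/GM-CSF and both together, and at -1.88, -3.56 and -3.75 in the high ones. All 6 values were well above background, no low value overlapped a high one, and the rise was 3.50 ± 0.26 log2 (SE, 3 pairs, limma adjusted p = 0.00618). Its receptor chain Il10ra thus moved the other way in the same cells. Il1bos, a transcript from the strand opposite the Il1b gene, was at -3.21, -1.74 and -1.03 in the low and -5.02, -4.62 and -2.98 in the high fractions, the EPO high one not well above background. It rose by 2.21 ± 0.29 log2 (SE, 3 pairs, limma adjusted p = 0.0180). Il1b itself differed by 1.39 ± 0.56 (SE, adjusted p = 0.177) and did not pass the test. Il4i1, a secreted amino acid oxidase, had a difference of 1.66 ± 0.39 (SE, adjusted p = 0.0671) and was called under 4 other settings.

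**Figure D2:**
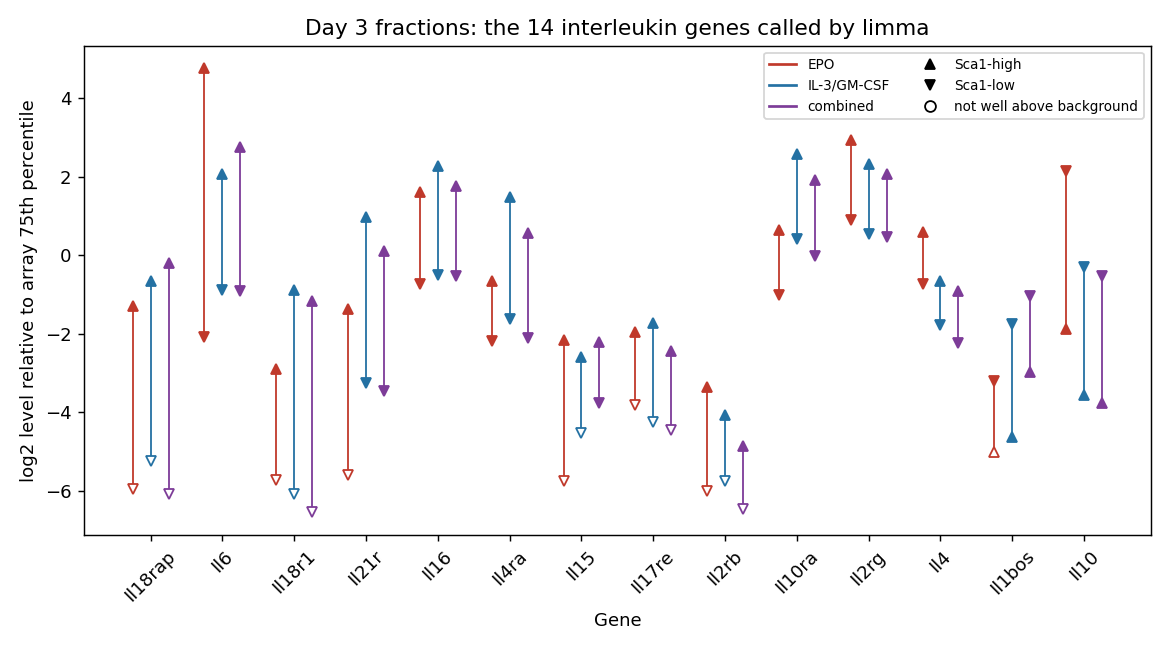
Levels (vertical axis, log2 relative to the array's 75th percentile) of the 14 called genes in Sca1-low (downward triangles) and Sca1-high cells (upward triangles) at day 3, coloured by treatment and joined within a treatment. Open symbols are not well above background; the low fraction lies below the high one in all 3 treatments for 12 genes and above it for Il1bos and Il10.

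As single pairs of arrays, 7 interleukin genes were at least 2-fold higher and 16 lower in EPO Sca1-low cells (all genes 12.2% and 12%). For IL-3/GM-CSF there were 5 higher and 17 lower (9.26% and 11.4%), and for both together 6 higher and 16 lower (11.4% and 10.6%). Of the 50 genes, 10 were at least 2-fold lower in all 3 treatments (5.66% of all genes), and Il10 and Il1bos were at least 2-fold higher in all 3 (2.70% of all genes). The 10 are all among the 12 that fell. Il18r1 and Il2rb missed this count when measured from the background limit. Some gaps appeared in only some of the pairs. Il2ra, the alpha chain that makes the high-affinity IL-2 receptor, was at -4.09 in IL-3/GM-CSF Sca1-low cells, not well above background, and at 1.89 in Sca1-high cells. With the combined treatment it was at -5.30 and -0.94, and with EPO both fractions were not well above background (-5.69 and -5.61). Il12rb1, a chain of the IL-12 and IL-23 receptors, was at -0.83 and 1.61 with IL-3/GM-CSF, at -1.42 and 1.52 with the combined treatment, and at -0.61 and 0.23 with EPO. The reverse was seen for Il6ra, the IL-6 binding chain: its fractions differed with EPO (0.65 and 2.96) but lay together with IL-3/GM-CSF (-1.09 and -0.89) and with both sets of factors (-1.08 and -1.01). Whether these gaps differ between treatments was not tested, because each is 1 pair.

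Markers of other cells moved with the fractions. Ly6a, which encodes Sca1, was lower in the low fractions by 6.59 ± 0.85 (SE, limma adjusted p = 0.0170), as the sort selected. All 6 erythroid markers rose in Sca1-low cells, and 3 of 6 progenitor markers fell (Cd34, Ly6a and Meis1). Of 7 mast cell and basophil markers 3 fell, with Cpa3 at a difference of -5.41 ± 0.53 and Mcpt8 at -6.81 ± 0.76 (SE, limma adjusted p = 0.00986 and 0.0123). The summed level of that list, carried mostly by Cpa3 and Mcpt4, was 3.03 to 3.15 in the 3 low fractions, 7.22 to 8.75 in the 3 high fractions and 8.64 in untreated cells. At day 3 this sum was thus low in the same fractions as Il6, Il18r1 and Il18rap. The same held for the progenitor sum (4.54 to 4.80 low, 6.41 to 7.67 high) and the neutrophil sum (6.71 to 8.06 and 8.44 to 8.75). The monocyte and eosinophil sums overlapped between fractions, and the erythroid sum went the other way. The median of the mast cell and basophil list separated less with IL-3/GM-CSF (-3.81 low, -3.18 high). It was -3.53 and -0.10 with EPO and -4.22 and -2.14 with both together. Mcpt1 was higher in low cells with IL-3/GM-CSF (-2.69 against -3.35) and with both together (-2.88 against -3.79), and lower with EPO (-1.97 against -0.10). Of the T and NK list 1 of 3 tested markers fell, namely Nkg7, by 2.20 ± 0.32 log2 (SE, limma adjusted p = 0.0224). It carries most of that list's summed level, which ran from 3.62 to 4.43 in low and 5.22 to 7.01 in high fractions. Cd3e differed by 0.43 ± 0.28 and Cd3g by 0.84 ± 0.38 (SE, adjusted p = 0.343 and 0.213), so the list's median difference, 0.43, has the other sign. The defining Cd8a and Ncr1 were each well above background on only 1 array. Of the eosinophil markers 2 of 4 fell, of the monocyte markers 1 of 5 and of the neutrophil markers 1 of 8. The part of these markers in the interleukin differences was not tested, and in RNA from a mixed culture fewer cells of a type and less RNA per cell cannot be told apart.

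Lists of signalling genes and partner chains were read in the same fit. Of 11 JAK and STAT genes 2 fell in Sca1-low cells, namely Jak3, the kinase of the gamma chain (-1.39 ± 0.20 SE, limma adjusted p = 0.0212), and Stat3, the main factor of IL-6, IL-10 and IL-21 signalling (-1.68 ± 0.31 SE, adjusted p = 0.0385). Of 8 SOCS genes, which feed back on JAK signalling, Socs3 fell by 1.66 ± 0.23 and Socs5 by 2.47 ± 0.26 (SE, limma adjusted p = 0.0194 and 0.0111). Of 13 tested genes of IL-1 receptor signalling and the inflammasome, Tab1 rose by 1.00 ± 0.20 (SE, limma adjusted p = 0.0458) and none fell. Of 11 tested partner chains and ligands without an Il symbol, 5 fell and none rose. They were Csf2rb (-1.55 ± 0.25) and Csf2rb2 (-2.04 ± 0.32), beta chains of the IL-3 receptor, and Crlf2 (-1.24 ± 0.22), a chain of the TSLP receptor. The others were Ebi3 (-2.95 ± 0.46), a subunit of IL-27 and IL-35, and Traf3ip2 (-2.10 ± 0.20), the adaptor of IL-17 receptors.

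Against untreated cells, treated arrays were compared with 1 shared control array, so these comparisons are not independent of each other. On single arrays, a gene counts if it differed at least 2-fold with its higher side well above background. EPO Sca1-high cells stood closest to untreated cells, with 4 interleukin genes higher and 1 lower (all genes 2.95% and 1.27%). EPO Sca1-low cells had 6 higher and 14 lower, where the background was 18.5% and 14.9%, so the share of higher genes (12%) was below that of all genes. The low fractions of IL-3/GM-CSF and of both together had 16 and 18 lower genes (background 9.01% and 10.7%) and 8 and 6 higher (7.46% and 9.07%). The high fractions leaned the other way, with 14 higher and 8 lower for IL-3/GM-CSF (7.97% and 6.17%) and 12 higher and 7 lower for the combined treatment (7.15% and 6.01%). At day 6 EPO cells had 8 higher and 14 lower (11.6% and 11.2%), IL-3/GM-CSF cells 15 higher and 11 lower (9.51% and 7.65%) and combined cells 12 higher and 8 lower (7.10% and 6.11%).

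**Figure D3:**
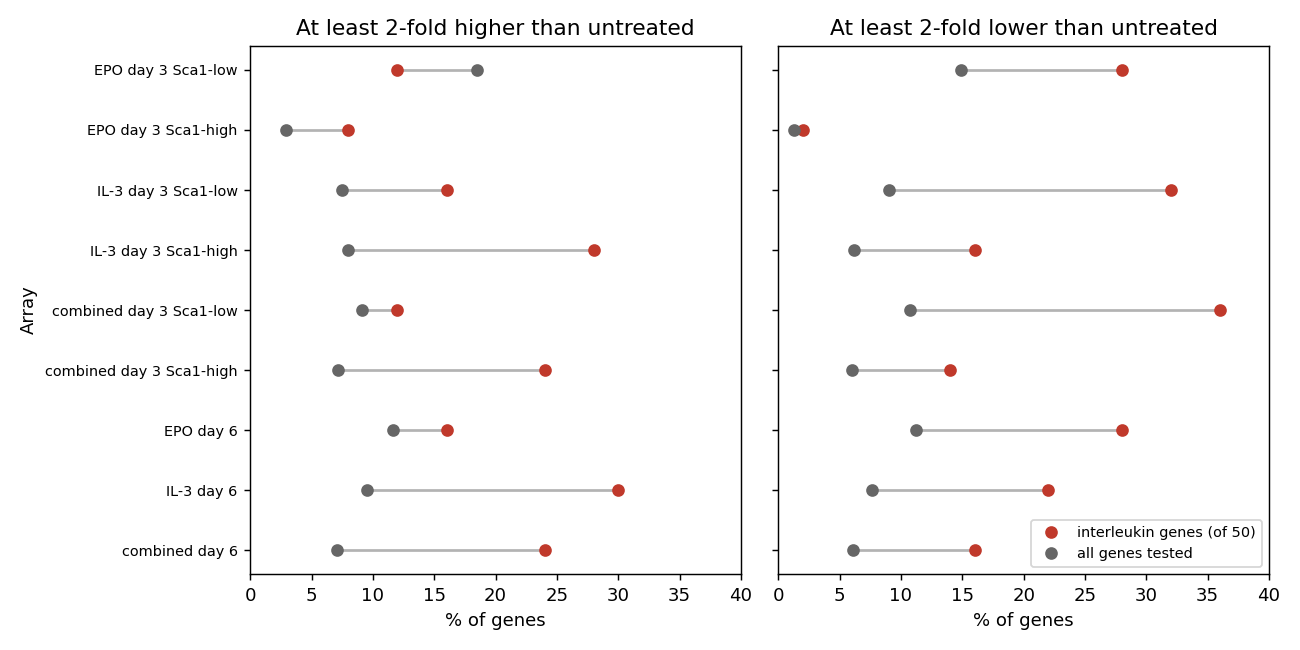
Percent of genes at least 2-fold higher (left) or lower (right) than untreated cells on each treated array, for the 50 interleukin genes (red) and all 14217 genes tested (grey). The red point lies to the right of the grey one on all panels' rows except EPO Sca1-low in the left panel, where 12% of the interleukin genes and 18.5% of all genes were higher.

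IL-6 and its receptor chains were high in untreated cells. Il6ra stood at 3.43 in untreated cells, at 0.65, 2.96 and 0.48 on the EPO low, high and day 6 arrays, at -1.09, -0.89 and -0.14 with IL-3/GM-CSF and at -1.08, -1.01 and -0.32 with the combined treatment. All 6 arrays that had received IL-3 and ATRA lay below all 4 others. Il6st, the signal-transducing gp130 chain, stood at -0.32 in untreated and -0.46 in EPO Sca1-high cells, and between -4.25 and -2.95 on the other arrays. Its spot missed the background criterion in EPO Sca1-low and IL-3/GM-CSF day 6 cells. Il31ra, a gp130-like chain whose gene neighbours Il6st on chromosome 13, was at -0.30 in untreated cells, at -1.29, -0.28 and -1.90 with EPO, at -1.78, -2.41 and -4.16 with IL-3/GM-CSF and at -2.37, -1.84 and -2.11 with the combined treatment.

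The ligand Il6 kept its level of 4.47 only in EPO Sca1-high cells (4.77). At day 6 it was at -2.74 with EPO, 148-fold below untreated cells, at 1.02 with IL-3/GM-CSF, a difference of -3.45, and at 3.53 with the combined treatment. Il9, a mast cell and T cell growth factor, was at -1.21 in untreated cells and well above background elsewhere only in IL-3/GM-CSF day 6 cells (-3.47). It was at least 2-fold lower than untreated on all 9 treated arrays. Il13, a type 2 cytokine whose gene neighbours Il4 on chromosome 11, was at -2.69 in untreated cells, -1.02 in EPO Sca1-high cells, -4.41 and -4.55 in the other high fractions and -3.42 in combined day 6 cells, and not well above background on the other 5 arrays. These genes were thus highest in untreated or EPO Sca1-high cells.

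**Figure D4:**
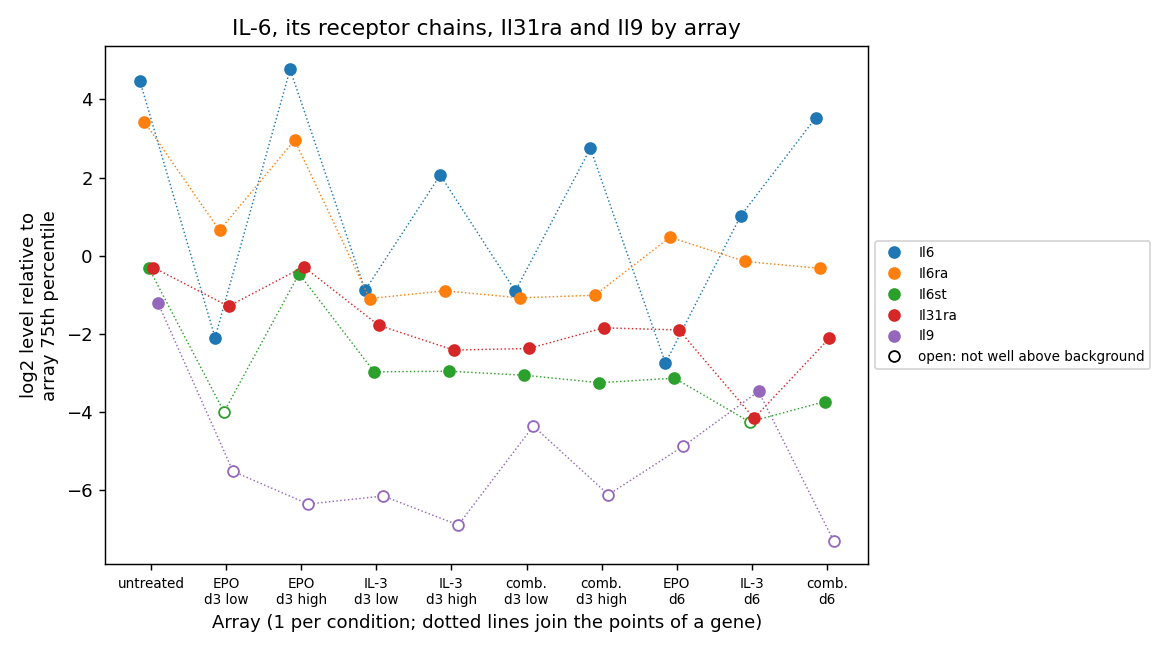
Levels of Il6, Il6ra, Il6st, Il31ra and Il9 (vertical axis, log2 relative to the array's 75th percentile) on the 10 arrays, with open symbols for spots not well above background. Il6ra stands at 3.43 and 2.96 in untreated and EPO Sca1-high cells. It lies between -1.09 and -0.14 on the 6 arrays that received IL-3 with ATRA, those of day 6 also GM-CSF. Il9 is at -1.21 only in untreated cells.

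A further group was near background in untreated cells and high at day 6 with IL-3/GM-CSF, alone or combined. Il1r2, the IL-1 decoy receptor, was not well above background in untreated cells (-6.16), with EPO (-5.85, -5.88 and -5.57) or in the other low fractions (-6.28 and -6.76). It stood at -1.17 in IL-3/GM-CSF Sca1-high and -3.03 in combined Sca1-high cells, and at 3.18 and 1.93 at day 6. This is at least 241-fold above untreated cells at day 6 with IL-3/GM-CSF and at least 102-fold with the combined treatment. Il1f9, which encodes the IL-1 family ligand IL-36 gamma, was at 1.29 and 0.57 on these day 6 arrays and at -3.10 and -2.81 in IL-3/GM-CSF Sca1-low and Sca1-high cells. It was not well above background on the other 6 arrays (-6.93 to -5.62), so the day 6 gaps from untreated cells are at least 65.0-fold and 39.6-fold.

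Among the other brakes on interleukin action, Il22ra2 and Il1rn were likewise highest on these day 6 arrays. Il22ra2 was at 0.56 and -0.60 at day 6 with IL-3/GM-CSF and combined, at -3.10 and -4.53 in their high fractions, and not well above background elsewhere. Its day 6 levels were at least 39.3-fold and 17.6-fold above untreated cells. Il1rn was well above background on these day 6 arrays only (-2.29 and -3.54), at least 5.43-fold and 2.30-fold above untreated cells. Il18bp was measured on all 10 arrays, at -3.03 in untreated cells, -0.61 and -1.71 on these day 6 arrays and -1.20 in EPO day 6 cells, so it was at least 2-fold higher at day 6 with every treatment and was higher with EPO than with the combined treatment. Il13ra2 was well above background only in the Sca1-high cells given IL-3/GM-CSF (-4.58) or both sets of factors (-2.02).

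**Figure D5:**
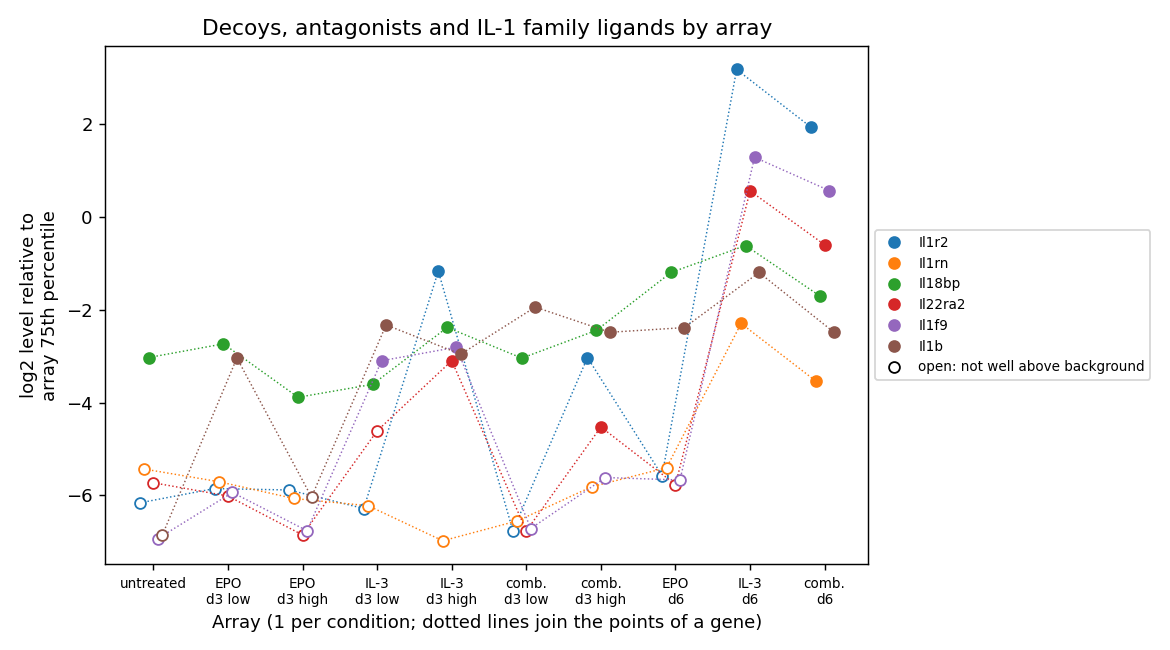
Levels of the decoys and antagonists Il1r2, Il1rn, Il18bp and Il22ra2 and of the ligands Il1f9 and Il1b (vertical axis, log2 relative to the array's 75th percentile) on the 10 arrays, with open symbols for spots not well above background. All 6 are well above background at day 6 with IL-3/GM-CSF and with the combined treatment, where Il1r2 reaches 3.18 and 1.93, while on the EPO day 6 array only Il18bp and Il1b are.

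Il1b, the inflammatory IL-1 ligand, was near background in untreated (-6.86) and EPO Sca1-high cells (-6.04). It was at -3.04 and -2.38 in EPO low and day 6 cells, at -2.33, -2.96 and -1.20 with IL-3/GM-CSF and at -1.94, -2.48 and -2.48 with the combined treatment. Il1b was therefore at least 2-fold above untreated cells on 8 of the 9 treated arrays. Il1rl1, the IL-33 receptor that mast cells carry, was bright on every array, at 4.91 in untreated cells and from 3.30 to 4.93 elsewhere, except 1.91 at day 6 with IL-3/GM-CSF, 8.04-fold below untreated cells. At day 6 the neutrophil list was summed at 10.9 with IL-3/GM-CSF and 10.6 with the combined treatment, against 8.71 in untreated and 6.70 in EPO cells. Its median level was 6.72 and 5.98 on the first and second of these, -1.81 in untreated and -0.39 in EPO cells, so untreated and EPO cells change places. The monocyte median was also higher on the IL-3/GM-CSF and combined day 6 arrays (2.68 and 2.05) than in untreated (-2.51) and EPO day 6 cells (-4.58). So was the eosinophil median (-0.45 and -1.19, against -2.65 and -5.48). The progenitor, erythroid, and mast cell and basophil medians were below untreated on both arrays. The part of these lists in the levels of the decoys was not tested.

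Il2ra was at least 98.6-fold above untreated cells in IL-3/GM-CSF Sca1-high cells (1.89, against -6.66 and not well above background), and at least 35.7-fold at day 6 (0.42). With the combined treatment it was at -0.94 in Sca1-high and -1.04 in day 6 cells, and in EPO day 6 cells at -2.11. Il21r, Il18r1, Il10ra and Il4ra were also each, on their brightest probes, at least 2-fold above untreated cells in the high fraction and at day 6 with IL-3/GM-CSF and also with the combined treatment. Il21r reached 0.98 and 1.50 with IL-3/GM-CSF and 0.12 and 0.86 with the combined treatment, from -1.39 in untreated cells. Il10ra reached 2.57 and 1.36, and 1.93 and 1.05, from -0.63. The receptors that were low in the Sca1-low fractions were thus not all low throughout the treated cells.

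Across all 3 arrays of a treatment, few genes kept at least a 2-fold gap from untreated cells. With EPO, Il10 was higher (0.689% of all genes) and Il9 lower (0.415%). With IL-3/GM-CSF, Il10ra, Il1b and Il1f9 were higher (1.28%) and Il13, Il17ra, Il31ra, Il6, Il6ra, Il6st and Il9 lower (2.12%). With the combined treatment Il1b was higher (1.01%) and Il31ra, Il6ra, Il6st and Il9 lower (2.05%). Il10 stood at -4.59 in untreated cells, and at 2.15, -1.88 and -0.24 in EPO low, high and day 6 cells, which is 107-fold above untreated cells in the low fraction. At day 6 it was not well above background with IL-3/GM-CSF (-5.33) and was at -4.16 with the combined treatment.

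Some of the remaining genes are given by their range. The receptor chains Il10rb, Il11ra1 and Il20rb and the ligand Il27 were well above background on all 10 arrays and ranged between 0.01 and 1.01, -0.75 and 0.25, -2.42 and -1.75, and -0.49 and 0.37. Il17ra, the common chain for IL-17 cytokines, ran from 1.90 in untreated cells to -0.09 at day 6 with IL-3/GM-CSF. Il15ra was highest in EPO low and day 6 cells, at 4.99 and 4.76, and between 2.30 and 3.44 elsewhere, but a dimmer Il15ra probe was well above background on 0 arrays and correlated with it at only 0.44. The cells' own Il3 transcript was measured on all 10 arrays, from -3.82 at day 6 with IL-3/GM-CSF to -1.47 in combined Sca1-low cells. Il18 was well above background on 3 arrays only, the high fractions with IL-3/GM-CSF (-3.12) and with both (-3.41), and combined day 6 cells (-3.88).

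Single arrays of the same population were also set side by side between treatments. The EPO and IL-3/GM-CSF arrays share a slide in both day 3 fractions but not at day 6. In Sca1-high cells EPO against IL-3/GM-CSF had 8 interleukin genes at least 2-fold higher and 13 lower (all genes 5.78% and 6.30%). In Sca1-low cells the same comparison had 6 higher and 6 lower (9.19% and 8.89%), and at day 6 there were 9 higher and 16 lower (16.2% and 14%). The combined treatment stood nearer to IL-3/GM-CSF, with 1 higher and 3 lower in Sca1-low (2.69% and 1.92%), 2 higher and 6 lower in Sca1-high (3.93% and 4.56%) and 3 higher and 8 lower in day 6 cells (2.49% and 2.88%). Against EPO it had 6 higher and 7 lower in Sca1-low (8.17% and 10.5%), 13 higher and 8 lower in Sca1-high (7.45% and 8.79%) and 13 higher and 7 lower in day 6 cells (12.9% and 13.1%). Among genes already named, the combined and IL-3/GM-CSF day 6 arrays differed in Il6, at 3.53 against 1.02, in Il1rl1, at 4.32 against 1.91, and in Il31ra, at -2.11 against -4.16. Each combined array was on a different slide from the IL-3/GM-CSF array of the same population, and it shared a slide with the EPO array only at day 6.

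The comparisons averaged over populations used limma on all 10 arrays with 3 treatment means, the untreated level and population offsets, and called 0 of the 50 interleukin genes in each of 7 comparisons. At an unadjusted p under 0.05 there were 16 interleukin genes (32%, all genes 18.9%) for EPO minus IL-3/GM-CSF, 4 (8%, all 1.84%) for combined minus IL-3/GM-CSF, 11 (22%, all 23.6%) for combined minus EPO and 12 (24%, all 9.64%) for day 6 minus day 3. There were 9 (18%, all 10.5%), 14 (28%, all 6.77%) and 12 (24%, all 4.76%) for EPO, IL-3/GM-CSF and combined minus untreated. After adjustment the background was 0% called for all genes in both directions, except 0.00703% lower for EPO minus IL-3/GM-CSF and 0.00703% higher for combined minus EPO. The fit takes unequal treatment effects between populations as its error.

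The fitted treatment differences are given here for the 4 genes with the highest and the 4 with the lowest value, with their limma SE, and none passed the test. Several rest on dim spots, so their order is not a ranking. EPO minus IL-3/GM-CSF was -4.58 ± 1.20 for Il1f9, -4.35 ± 1.68 for Il1r2 and -3.83 ± 1.05 for Il22ra2, none of them well above background on any EPO array. Measured from the background limit these gaps are at least 2.39, 2.50 and 1.55 log2. It was -3.88 ± 1.08 for Il2ra, well above background on 1 of 3 EPO and 2 of 3 IL-3/GM-CSF arrays (adjusted p of these 4 from 0.208 to 0.249). On the other side it was 3.07 ± 0.62 for Il10 (adjusted p = 0.177), 2.07 ± 0.64 for Il6ra, 1.63 ± 0.51 for Il31ra and 1.53 ± 1.03 for Il13, the last well above background on 1 of 3 arrays of each treatment.

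Combined minus EPO was -2.83 ± 0.62 for Il10, -2.16 ± 0.64 for Il6ra and -1.71 ± 0.43 for Il15ra, all of them well above background on every array of both treatments. It was 2.76 ± 0.66 for Il21r (1 of 3 EPO arrays well above background) and 3.15 ± 1.68 for Il1r2 (0 of 3, at least 1.31 log2). Il1f9 (2.20 ± 1.20) and Il22ra2 (2.25 ± 1.05) were well above background on 0 of 3 EPO arrays. Measured from the limit no mean gap was left, but that mean includes dim combined spots as read. On the day 6 arrays alone, Il1f9 and Il22ra2 were well above background in combined cells, at 0.57 and -0.60. The EPO day 6 limit was -3.47. Il22ra1 (-1.47 ± 0.40) was well above background on 1 of 3 arrays of each treatment. The adjusted p of these 8 ran from 0.147 to 0.295. Combined minus IL-3/GM-CSF was smaller, from -2.38 ± 1.20 for Il1f9, -1.83 ± 1.08 for Il2ra, -1.58 ± 1.05 for Il22ra2 and -1.45 ± 0.47 for Il19 to 0.91 ± 1.03 for Il13, 1.00 ± 0.69 for Il1rl1, 1.06 ± 1.46 for Il6 and 1.59 ± 1.17 for Il1bos. Of these, Il1rl1 and Il6 alone were well above background on every array of both treatments.

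The averaged differences from untreated cells did not pass the limma test either. EPO minus untreated was -4.49 ± 2.07 for Il6, -2.21 ± 1.01 for Il6st, -2.19 ± 0.94 for Il21r and 4.60 ± 0.87 for Il10, and Il9, at -4.37 ± 1.42, was lower by at least 2.72 log2. Il1bos (2.86 ± 1.66) and Il1b (3.04 ± 0.96) were not well above background in untreated cells, which bounds them at 1.52 and 0.92 log2. Il19 (2.27 ± 0.67) was not well above background on any of these arrays, so its value has no size.

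IL-3/GM-CSF minus untreated was -4.14 ± 0.91 for Il6ra, -3.74 ± 2.07 for Il6, and, with 1 of 3 treated arrays well above background, -4.29 ± 1.42 for Il9 and -3.12 ± 1.46 for Il13. The 4 genes on the other side were not well above background in untreated cells. Il2ra was fitted at 6.07 ± 1.53 and was at least 4.14 log2 higher, Il1r2 at 4.74 ± 2.38 and at least 3.31, Il1f9 at 5.39 ± 1.70 and at least 3.20, and Il1b at 4.70 ± 0.96 and at least 2.58. Combined minus untreated was -4.23 ± 0.91 for Il6ra, -3.02 ± 1.01 for Il6st and -2.68 ± 2.07 for Il6, and Il9 (-4.71 ± 1.42) was lower by at least 3.70 log2. Il1b was fitted at 4.55 ± 0.96 and was at least 2.43 log2 higher, Il2ra at 4.24 ± 1.53 and at least 2.31, Il1bos at 3.46 ± 1.66 and at least 2.13, and Il1r2 at 3.54 ± 2.38 and at least 2.12.

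Day 6 minus day 3 was -1.93 ± 0.53 for Il10 and -1.06 ± 0.44 for Il31ra. Il17re (-1.06 ± 0.54) was well above background on 2 of 3 day 6 and 3 of 6 day 3 arrays. Il2rb (-1.10 ± 0.23) was so on 0 of 3 and 3 of 6, with no mean gap left when measured from the limit. Il1r2 (4.68 ± 1.46), Il1f9 (3.89 ± 1.04) and Il22ra2 (3.38 ± 0.91) were each well above background on 2 of 3 day 6 and 2 of 6 day 3 arrays, and Il1rn (2.48 ± 0.68) on 2 of 3 and 0 of 6, at least 0.79 log2 (SE, limma adjusted p of these 8 from 0.390 to 0.573). Here the EPO day 6 array decided the count. Without it 10 interleukin genes were called, of which 8 rose at day 6 (4.14% of all genes) and 2 fell (1.42%). Day 3 is here the mean of 2 sorted fractions, and both remaining day 6 arrays had received GM-CSF, which no day 3 array had. Day, sorting and GM-CSF cannot be told apart in this comparison. The fitted values below include dim day 3 spots, all of those of Il1rn among them. Those that rose were Il1r2 (6.87 ± 1.00, adjusted p = 0.0260), Il1f9 (5.49 ± 0.66), Il22ra2 (4.73 ± 0.63), Il1rn (3.48 ± 0.49), Il21r (2.58 ± 0.22), Il18rap (2.51 ± 0.32), Il1rap (1.34 ± 0.20) and Il16 (1.19 ± 0.20). Il10 (-2.71 ± 0.38) and Il1bos (-2.42 ± 0.38) fell.

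The arrays came from 3 slides. Each fraction pair shared a slide, so the fraction comparison is within slides, and untreated cells shared theirs with EPO and combined day 6 cells. With slide as a block, 2 interleukin genes were called higher and 5 lower for EPO minus untreated (all genes 2.52% and 4.81%). There were 5 higher and 1 lower for combined minus EPO (4.09% and 2%), and 4 higher and 2 lower for day 6 minus day 3 (3.21% and 1.4%). There was 1 higher and 1 lower each for IL-3/GM-CSF minus untreated (0.696% and 1.4%) and combined minus untreated (0.239% and 0.204%). That fit leaves 2 residual degrees of freedom and turned the sign of several differences. No IL-3/GM-CSF array was on the slide of untreated cells, so that blocked comparison is reached only through arrays of other treatments. Its Il1bos difference was 10.6, although Il1bos was read at -1.74, -4.62 and -6.22 with IL-3/GM-CSF and at -6.07 in untreated cells. Within the slide that holds untreated cells, at day 6, Il6 was 148-fold lower with EPO, and Il1r2 was at least 102-fold higher with the combined treatment.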

How the data were processed

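RNA of 10 EML-C1 samples was labelled with Cy3 and hybridised to 1-colour 60-mer arrays, per the labels' protocols. The authors deposited spot intensities from Agilent Feature Extraction 11.0.1.1, made with extraction protocol GE1_1100_Jul11 and annotation on mm9, per the file headers. The deposited series matrix held the same intensities (593050 of 593050 compared values were equal). A background-corrected signal per spot was used here as log2 minus the 75th percentile of its array. Control spots and spots marked as outliers (171 to 360 of 59305) were left out, and repeat spots were averaged.

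RefSeq accessions named 27235 of 55681 probes (98.1% of NM and NR accessions matched), and 28446 unnamed probes were left out. Symbols are those of the RefSeq table. The brightest probe stood for a gene, and of 13 interleukin genes with several probes 7 had a probe correlation under 0.5 (Il15ra, Il17d, Il17rc, Il19, Il22ra1, Il4ra and Il9r). No depth exists for arrays; 1 array per condition limits the precision, and nothing here measures replicate error.

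limma 3.58.1 (R 4.3.3) tested fractions on 6 arrays with treatment as a block (2 residual degrees of freedom). The other 7 comparisons used an additive fit of 10 arrays (4 residual degrees of freedom). Adjustment was by Benjamini-Hochberg over 14217 genes, threshold 0.05, and the code was tested on simulated data. The text names, per comparison, called genes and the 4 highest and 4 lowest differences, and levels of all groups of genes; genes given by single-array levels were chosen after their values were seen. Gene, marker and signalling lists were chosen with earlier results of these data known. Alternatives were the normalization, background correction, dim-probe filter, probe choice, slide, prior variance, fit and each array or pair left out. The result of 1 marker list is not reported here.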

Additional observations from a re-analysis of the deposited data

Results flagged for a closer look

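Some genes moved at least 2-fold in opposite directions under the same contrast in 2 treatments. Each value is 1 array against 1 array, and the differences between treatments were not tested.

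In Sca1-low against Sca1-high cells at day 3, Il18bp, the soluble IL-18 binder, was 1.15 log2 higher with EPO and differed by -1.23 with IL-3/GM-CSF. Il1rl1, the IL-33 receptor, was 1.59 higher with IL-3/GM-CSF and differed by -1.09 with EPO.

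At day 6 against untreated cells, 4 genes were higher with IL-3/GM-CSF and lower with EPO. Il10ra differed by 1.99 with IL-3/GM-CSF, 1.68 with the combined treatment and -2.29 with EPO. Il16 differed by 1.03 with IL-3/GM-CSF and -3.41 with EPO. Il18rap differed by 1.11 with IL-3/GM-CSF and by at least 1.89 in the lower direction (-1.89) with EPO, where it was not well above background. Il21r differed by 2.89 with IL-3/GM-CSF, 2.25 with the combined treatment and -2.40 with EPO, or -2.08 measured from the background limit. The EPO and combined day 6 arrays shared the slide of the untreated array, and the IL-3/GM-CSF day 6 array did not.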

How the results depend on the processing

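Every sample carries replicate number 1, so the replicate numbers pair no samples across groups. The fraction comparison pairs low with high cells within each treatment, with the treatment as its block. Over 72 named differences and 23 settings, 1233 of 1355 alternative values kept direction and side of the threshold, 91 lost their call, 20 gained one and 11 changed sign. These totals do not measure robustness. The fraction fit uses only day 3 arrays and no slide block, so some settings repeat its values. In it, leaving out 1 array of a pair equals leaving out the pair. Only 14 fraction differences were called in the main fit, so most unchanged values are differences that stayed uncalled. The number of genes called between fractions was 14. It was 8 with a filter on all 10 arrays and 0 in the additive fit. That fit gives the same low-minus-high differences, so no sign could change. The number called was 0 without the IL-3/GM-CSF pair and 5 without the combined pair, and with single arrays left out it ran from 0 to 21. For day 6 minus day 3 it ran from 0 to 10, and with slide as a block it was 6. With that block it was 6 for combined minus EPO, 7 for EPO minus untreated and 2 each for IL-3/GM-CSF and combined minus untreated, from 0, where the share of all genes called ranged from 0.204% to 4.81% per direction. The filter passed 50 genes, 78 without it and 22 on all 10 arrays. After normexp with quantile normalization 5 genes, not 8, were at least 2-fold higher in IL-3/GM-CSF Sca1-low than in untreated cells; normexp used the median spot signal, since the files used here give no mean signal.

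With single arrays left out, combined minus IL-3/GM-CSF ran from -0.37 to 1.90 for Il13 and from -0.42 to 2.11 for Il6, lowest without combined day 6. With slide as a block it became 0.17 for Il19, -3.34 for Il1bos, 2.84 for Il1f9, -0.0152 for Il1rl1 and 2.59 for Il22ra2. Also with that block, day 6 minus day 3 was 2.53 for Il17re, IL-3/GM-CSF minus untreated was -2.20 for Il1f9 and -6.23 for Il1r2, and combined minus untreated was -0.87 for Il1r2. The cause of these changes was not tested.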
